A study of Homo sapiens with 12 samples.

Results

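ISG15, its conjugation enzymes and the PARP9-DTX3L group are 9 interferon-linked genes, chosen by symbol: ISG15, UBE2L6, HERC5, HERC6, USP18, PARP9, DTX3L, PARP14 and PARP12. All 9 were found among the 13091 gene rows of the deposited RNA sequencing table. The study raised ONECUT2, a transcription factor, in gastric cancer cells. AGS and MKN74 are established human gastric cancer lines, and each gave 1 control library and 1 ONECUT2 overexpression library, so 4 groups of 1 library were compared. How ONECUT2 was introduced, and whether the cells were a pool or a clone, was not stated in the sources used. The 8 chromatin immunoprecipitation and input samples were not analysed here.

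ISG15 is a small protein related to ubiquitin that interferon-treated cells make in large amounts and attach to other proteins. Like ubiquitin, it is passed along a chain of an activating enzyme, a carrier enzyme and a ligase, and a protease takes it off again. ADP-ribosylation is another protein modification, laid down by PARP enzymes, several of which are also interferon-induced. In the nucleus the activated factor complex ISGF3 binds a DNA element called the interferon-stimulated response element (ISRE) near the starts of such genes.

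ONECUT2 itself was higher in both overexpression libraries, from 4.39 to 18.3 CPM (read counts scaled to library size) in AGS and from 5.14 to 57.6 CPM in MKN74. The deposited rows held 36097456 to 38110453 recovered reads per library, 83.1% to 88.1% of the total implied by the CPM of 1 read. Of 7 epithelial markers, 7 were detected in every library. Their summed levels were 5948 and 5662 CPM in the AGS control and overexpression libraries, and 14192 and 9077 CPM in those of MKN74. In MKN74 overexpression 4 of the 7 were higher than in the control and 3 lower. CDH1 was at 7.63 and 8.74 CPM in AGS against 211 and 284 CPM in MKN74. Below, a change is a difference of log2(CPM + 1), overexpression minus control unless stated, which understates changes of low genes. Ratios are of CPM, with exact 95% intervals that cover counting error only. Each group is 1 library without replicates, so each change describes these libraries and has no test. In bulk RNA, fewer cells making a transcript and less transcript per cell cannot be told apart.

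The promoters are shown first because the ISRE is the DNA element that the members are known for. RefSeq promoter windows (GRCh38.p14, 250 bases before to 50 after a start) were matched by symbol for 8 of the 9 genes, in 10 windows. The ISRE core searched was GAAANNGAAA on both strands, and overlapping matches were counted separately. It was present in 6 of the 10 windows, and in 3.57% of all 35116 windows of 300 bases. By gene it was present in 6 of the 8, and in 4.38% of the 27305 genes with any window. PARP9 and DTX3L are both counted through the same core, given below. The stretches below run from 20 bases before to 10 after the cores, 5′ to 3′ on the gene's own strand, with every core in capitals. On the opposite strand the core reads as its reverse complement, as in HERC5 and PARP12.
ISG15, chr1:1013364-1013409, + strand: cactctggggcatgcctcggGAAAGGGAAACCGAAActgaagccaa
HERC5, chr4:88456974-88457064, + strand: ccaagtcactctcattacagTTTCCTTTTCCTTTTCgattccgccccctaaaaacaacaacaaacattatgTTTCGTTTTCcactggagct
DTX3L, chr3:122564312-122564351, + strand: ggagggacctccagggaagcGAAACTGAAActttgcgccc
PARP14, chr3:122680790-122680829, + strand: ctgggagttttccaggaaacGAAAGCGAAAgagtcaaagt
PARP12, chr7:140062942-140062981, - strand: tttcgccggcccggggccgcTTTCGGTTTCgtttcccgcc

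The ISG15 window held 2 overlapping cores, the first beginning 113 bases before the start, and the HERC5 window held 3. The core of DTX3L began 6 bases before its start. The same 10 bases, chr3:122564332-122564341, are the core of PARP9 on the other strand, since the genes run away from each other from starts 38 bases apart. A second annotated PARP9 start lies 446 bases from the DTX3L start, so the annotated genes overlap there. Whether the counting used strand was not stated in the sources used, so reads from the overlap could have gone to either gene. PARP14 had its core 29 bases before the start, and beside it a gamma-activated site core, TTCNNNGAA, at 40 bases. That motif was found in 1 of the 10 windows and in 7.66% of all windows. The windows of UBE2L6 and HERC6 held no ISRE core. The ONECUT cores ATCGAT and ATCAAT, on both strands, were in 0 of the 10 windows, and in 0.763% and 6.26% of all windows. A match or its lack describes these letters in these windows and no binding was measured here.

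**Figure D1:**
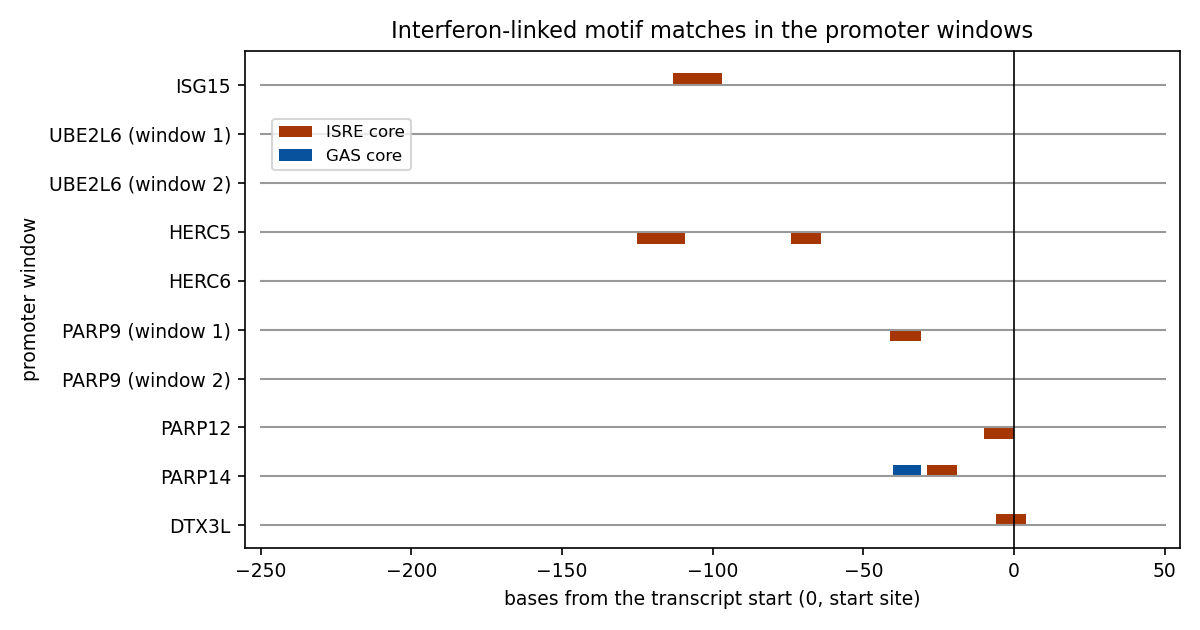
Positions of motif matches in the promoter windows, with bases from the transcript start on the x axis and 1 line per window. Bars above a line are on the gene's strand and bars below on the opposite strand; ISRE cores are seen in 6 windows and a gamma-activated site core in PARP14 alone.

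In MKN74 all 9 genes were at least 2-fold higher in the overexpression library. Over all 11914 genes that averaged 1 CPM or more across the MKN74 libraries, 3.26% were at least 2-fold higher and 1.35% at least 2-fold lower. The members' median change was 2.88, with a range of 1.76 to 3.92, beside a median of -0.02 over all those genes. In AGS 7 of the 9 passed the same filter, and 0 of the 7 changed 2-fold. Of 11675 genes tested in AGS 4.19% were at least 2-fold higher and 0.728% at least 2-fold lower. The AGS median over the 7 members was -0.22, with a range of -0.38 to 0.66, beside -0.0034 over all genes tested there.

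**Figure D2:**
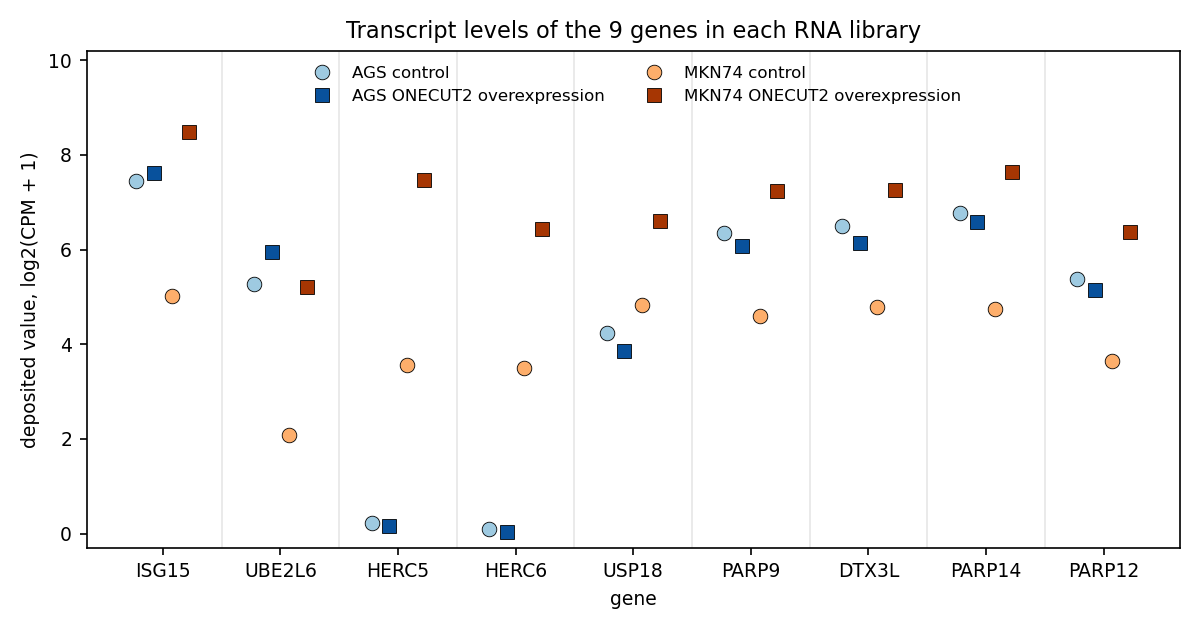
Deposited log2(CPM + 1) value of each gene in each of the 4 libraries, 1 point per library. The MKN74 overexpression library is the highest point for 8 of the 9 genes, and UBE2L6 is highest in AGS overexpression.

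ISG15, the modifier, was measured at 173 CPM in the AGS control, 196 CPM in AGS overexpression, 31.3 CPM in the MKN74 control and 359 CPM in MKN74 overexpression. The MKN74 control was thus the low library and the MKN74 overexpression library the high one, with both AGS libraries between them. Within MKN74 the change was 3.48, a CPM ratio of 11.5 (10.8 to 12.1), and it ranked 39th from the top of the 11914 genes. Within AGS the change was 0.18, a ratio of 1.13 (1.10 to 1.17).

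UBE2L6 is the carrier (E2) enzyme that hands ISG15 to a ligase. Its levels were 37.6 and 60.2 CPM in the AGS control and overexpression libraries, and 3.23 and 36.2 CPM in those of MKN74. It was the sole member that stayed lower in overexpressing MKN74 than in overexpressing AGS, and it had the largest increase of the members in AGS. The change was 3.14 in MKN74, with a ratio of 11.2 (9.39 to 13.4), and 0.66 in AGS, with a ratio of 1.6 (1.5 to 1.7). The nearest relative, UBE2L3, a carrier for ubiquitin, changed by -0.09 in MKN74 and -0.49 in AGS.

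HERC5 is the main ISG15 ligase of human cells. HERC5 stood at 0.171 CPM in the AGS control and 0.116 CPM in AGS overexpression, which are 7 and 5 reads, and at 10.8 and 178 CPM in the MKN74 control and overexpression libraries. It was near 0 in both AGS libraries and clearly present in both MKN74 libraries. Its MKN74 change of 3.92 was the largest of the 9, a ratio of 16.5 (15 to 18), and ranked 25th of all genes tested. In AGS its ratio of 0.677 had an interval of 0.170 to 2.48.

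HERC6, which does the work of ISG15 ligase in mouse, had the same order. It was recovered with 3 reads in the AGS control and 1 read in AGS overexpression, and stood at 10.3 and 86.1 CPM in the MKN74 control and overexpression libraries. The MKN74 change was 2.95, with a ratio of 8.37 (7.57 to 9.26). In AGS the ratio of 0.316 rested on those 4 reads and had an interval of 0.00602 to 3.94. Of the ligase pair, HERC5 differed more: the ratio of HERC5 to HERC6 reads was 1.05 (0.917 to 1.20) in the MKN74 control and 2.07 (1.99 to 2.15) in MKN74 overexpression. Such a ratio depends on transcript lengths, so its difference between libraries is what can be read.

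USP18 is the protease that removes ISG15, and it also restrains the type I interferon receptor by binding IFNAR2. Its levels were 17.7 and 13.4 CPM in AGS control and overexpression, and 27.5 and 95.7 CPM in the MKN74 libraries. Unlike ISG15, USP18 was higher in the MKN74 control than in either AGS library. It had the smallest MKN74 change of the 9, 1.76, a ratio of 3.48 (3.26 to 3.71), and ranked 155th. In AGS it changed by -0.38, a ratio of 0.758 (0.678 to 0.846). The ratio of ISG15 to USP18 reads was 9.80 in the AGS control, 14.6 in AGS overexpression, 1.14 (1.05 to 1.23) in the MKN74 control and 3.75 (3.63 to 3.88) in MKN74 overexpression. The ratio of modifier to protease reads was thus lowest in the MKN74 control. It too depends on transcript lengths, so only its difference between libraries can be read. USP18 has a near-identical copy, USP41, so its reads are uncertain where the counting split them.

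PARP9 and DTX3L encode partners of a heterodimer, in which DTX3L is a ubiquitin ligase and PARP9 a macrodomain protein. PARP9 was at 80.3, 66.1, 23.3 and 149 CPM in the AGS control, AGS overexpression, MKN74 control and MKN74 overexpression libraries. DTX3L was at 89.5, 69.2, 26.6 and 152 CPM in the same order. Both were thus lowest in the MKN74 control and highest in MKN74 overexpression. PARP9 changed by 2.63 in MKN74, a ratio of 6.39 (5.98 to 6.85), and by -0.28 in AGS, a ratio of 0.822 (0.782 to 0.865). DTX3L changed by 2.47 in MKN74, a ratio of 5.73 (5.38 to 6.11), and by -0.37 in AGS, a ratio of 0.773 (0.736 to 0.811). The ratio of PARP9 to DTX3L reads was 0.898 (0.856 to 0.941) in the AGS control and 0.955 (0.907 to 1.01) in AGS overexpression. It was 0.874 (0.801 to 0.954) in the MKN74 control and 0.976 (0.944 to 1.01) in MKN74 overexpression. The ratio thus varied far less than the levels, although the intervals of the AGS control and MKN74 overexpression do not overlap.

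PARP14 is a macrodomain PARP that attaches single ADP-ribose units. It was at 108 and 95.6 CPM in the AGS control and overexpression libraries and at 26.0 and 197 CPM in those of MKN74. The MKN74 change was 2.88, a ratio of 7.58 (7.12 to 8.08), and the AGS change -0.17, a ratio of 0.887 (0.850 to 0.926). PARP12, a zinc finger PARP, was at 40.3 and 34.5 CPM in AGS and at 11.5 and 82.4 CPM in MKN74. Its change was 2.74 in MKN74, a ratio of 7.16 (6.51 to 7.89), and -0.22 in AGS, a ratio of 0.857 (0.799 to 0.920). Among themselves PARP9, DTX3L, PARP14 and PARP12 differed little in MKN74, from 2.47 to 2.88. Each was slightly lower in AGS overexpression than in the AGS control.

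**Figure D3:**
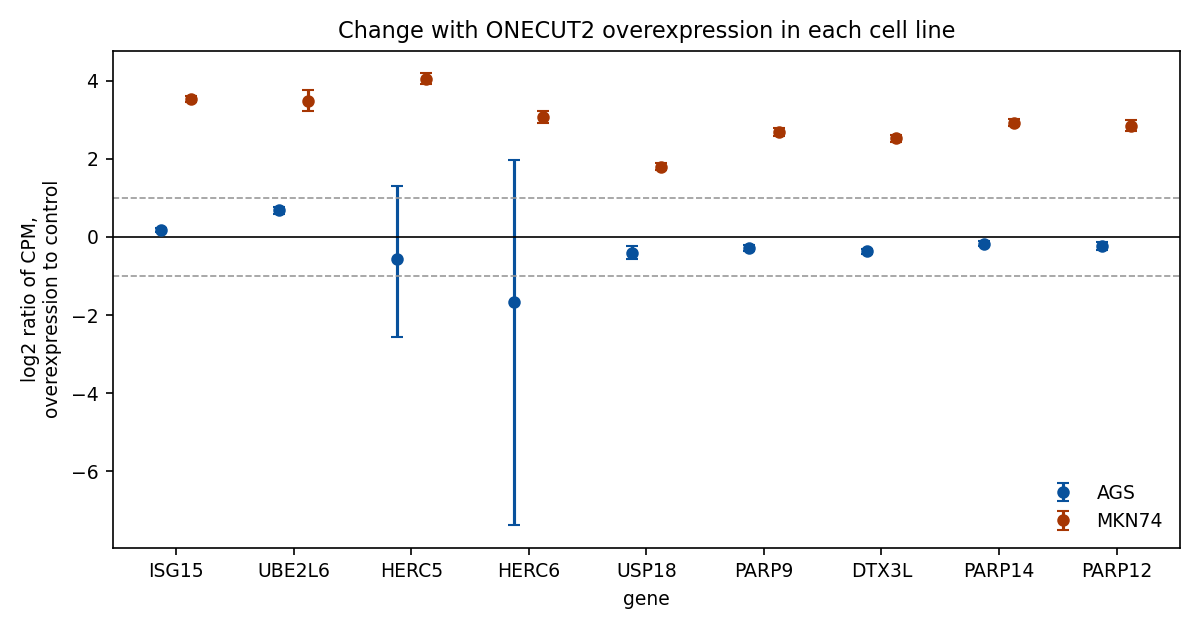
Log2 ratio of CPM, overexpression to control, for each gene in AGS and MKN74, with exact 95% counting intervals and dashed lines at 2-fold. All 9 MKN74 points lie above the upper line; in AGS ISG15 and UBE2L6 lie slightly above 0, and HERC5 and HERC6 rest on 12 and 4 reads.

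Of the 7 members tested in AGS, 2 had a counting interval above 1 and 5 an interval below 1. Of all 11675 genes tested there 37.2% had an interval above 1 and 38.9% one below 1, so such intervals were common at this depth. These sizes, up to 0.66 on the log2 scale, cannot be set against replicate spread, since each AGS group was 1 library. Of the same 7 members 5 had an interval below 1 in AGS and above 1 in MKN74, beside 9.59% of the 10766 genes tested in both lines. In MKN74 the 6 genes with an ISRE core in a window changed by 2.47 to 3.92. UBE2L6 and HERC6, without one in the windows searched, changed by 3.14 and 2.95. USP18, for which no window was matched, changed by 1.76. HERC5, whose window held 3 cores, was near 0 in both AGS libraries. Any link between the cores and the changes was not tested.

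The lines differed before ONECUT2 was raised. In the MKN74 control 6 of the 9 genes were at least 2-fold lower than in the AGS control and 2 were at least 2-fold higher. Over all 12161 genes tested between the controls, 16.4% were at least 2-fold lower and 14.5% higher in MKN74. ISG15 was 5.54-fold higher in the AGS control (5.23 to 5.88) and UBE2L6 11.7-fold (9.8 to 14). PARP14, PARP12, PARP9 and DTX3L were higher there by 4.15-fold (3.88 to 4.44), 3.50-fold (3.16 to 3.88), 3.45-fold (3.22 to 3.71) and 3.36-fold (3.15 to 3.60). The ligases were the other way round: HERC5 was 63.2-fold higher in the MKN74 control (30.4 to 158) and HERC6 141-fold (47.8 to 685), and both passed the filter through MKN74 alone. USP18 was 1.56-fold higher in the MKN74 control (1.42 to 1.71). This comparison and the change within MKN74 use the same MKN74 control library.

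Between the overexpression libraries, a comparison added after the data were seen, 7 of the 9 were at least 2-fold higher in MKN74. Over the 12416 genes tested between those libraries 15.1% were at least 2-fold higher and 18.0% lower in MKN74. HERC5 differed by 7.33 on the log2(CPM + 1) scale and HERC6 by 6.41, but both passed the filter through MKN74 alone and rested on 5 and 1 reads in AGS overexpression. Their CPM ratios were 1539 (659 to 4739.8) and 3722 (668 to 147045), and with a pseudocount of 0.1 the differences were 9.69 and 9.45. USP18 differed by 2.75. PARP12 differed by 1.23, PARP9 by 1.16, DTX3L by 1.13 and PARP14 by 1.04. ISG15 was 1.83-fold higher in overexpressing MKN74 (1.78 to 1.88), and UBE2L6 was 1.67-fold higher in overexpressing AGS (1.57 to 1.77).

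Taking the lines as replicates, limma with the line as a covariate called 0 of the 9 genes for an overexpression effect common to both. It called 0% of 12340 genes, and 566 had an unadjusted p under 0.05. UBE2L6 had the lowest p of the 9 in this fit, with a common effect of 1.90 (SE 0.61), higher in both lines, an unadjusted p of 0.0307 and a Benjamini-Hochberg adjusted p of 0.8. The other common effects ran from 0.69 (SE 0.53) for USP18 to 1.93 (SE 0.97) for HERC5, each with a limma adjusted p of 0.8. The fit leaves 1 residual degree of freedom. A fit by voom on the recovered reads also called 0 genes, with 902 at an unadjusted p under 0.05. In it HERC5 had an effect of 3.82 (SE 0.50), an unadjusted p of 0.000547 and a limma adjusted p of 0.411. HERC6 had an effect of 2.90 (SE 0.44) there, against 1.44 (SE 0.75) on the log2 values, with an unadjusted p of 0.00108 and a limma adjusted p of 0.416. Both ligase genes passed the filter through MKN74 alone, with 7 and 5 reads for HERC5 and 3 and 1 for HERC6 in AGS. Their AGS changes were -0.07 each, so these effects rest on MKN74 and show no effect shared by the lines. The unadjusted limma p of UBE2L6 was 0.0438 by voom and 0.119 with robust moderation. Whether the change differs between the lines was not tested, because such a fit leaves 0 residual degrees of freedom.

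Relatives of the members were given from lists chosen with earlier results of these data known. In the rest of the PARP family 2 of 12 tested genes were at least 2-fold higher in MKN74 and 0 lower, with a median of -0.07. The higher ones were PARP10, a mono-ADP-ribosyltransferase, at 4.13 (0.885 to 32.0 CPM), and PARP8 at 1.06. ZC3HAV1, the antiviral zinc finger protein also called PARP13, changed by 0.72, TIPARP by -0.73 and PARP1, the DNA damage sensor, by -0.05. In AGS 0 of 13 changed 2-fold in this family, and PARP10 changed by 0.17. Among genes that take ADP-ribose off, 0 of 7 changed 2-fold in MKN74, and 1 of 6 in AGS, the hydrolase gene MACROD1 at 1.53.

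Of the other Deltex and HERC genes 0 of 6 changed 2-fold on the log2(CPM + 1) scale in MKN74 and 0 of 7 in AGS. DTX4 and HERC3 came closest, at -0.98 and -0.95 in MKN74, and their CPM ratios of 0.494 and 0.495 lay just past 2-fold. Among the other ubiquitin-like modifiers with their activating and carrier enzymes, 0 of 28 changed 2-fold in either line. Their MKN74 changes ran from -0.30 to 0.36. A list added after the data were seen held 44 further genes with symbols beginning with USP and a number. Of these 1 was at least 2-fold higher in MKN74, the deubiquitinase gene USP25 at 1.12, and 0 changed 2-fold in AGS. Over all genes tested 3.26% were at least 2-fold higher in MKN74 and 4.19% in AGS. Of the other ISG15 pathway genes 1 of 6 was at least 2-fold higher in MKN74, STAT2 at 1.38, a factor that also bridges USP18 to the receptor. TRIM25, another ligase reported for ISG15, changed by 0.71 in MKN74 and 0.04 in AGS. The activating enzyme gene UBA7 was not analysed here.

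**Figure D4:**
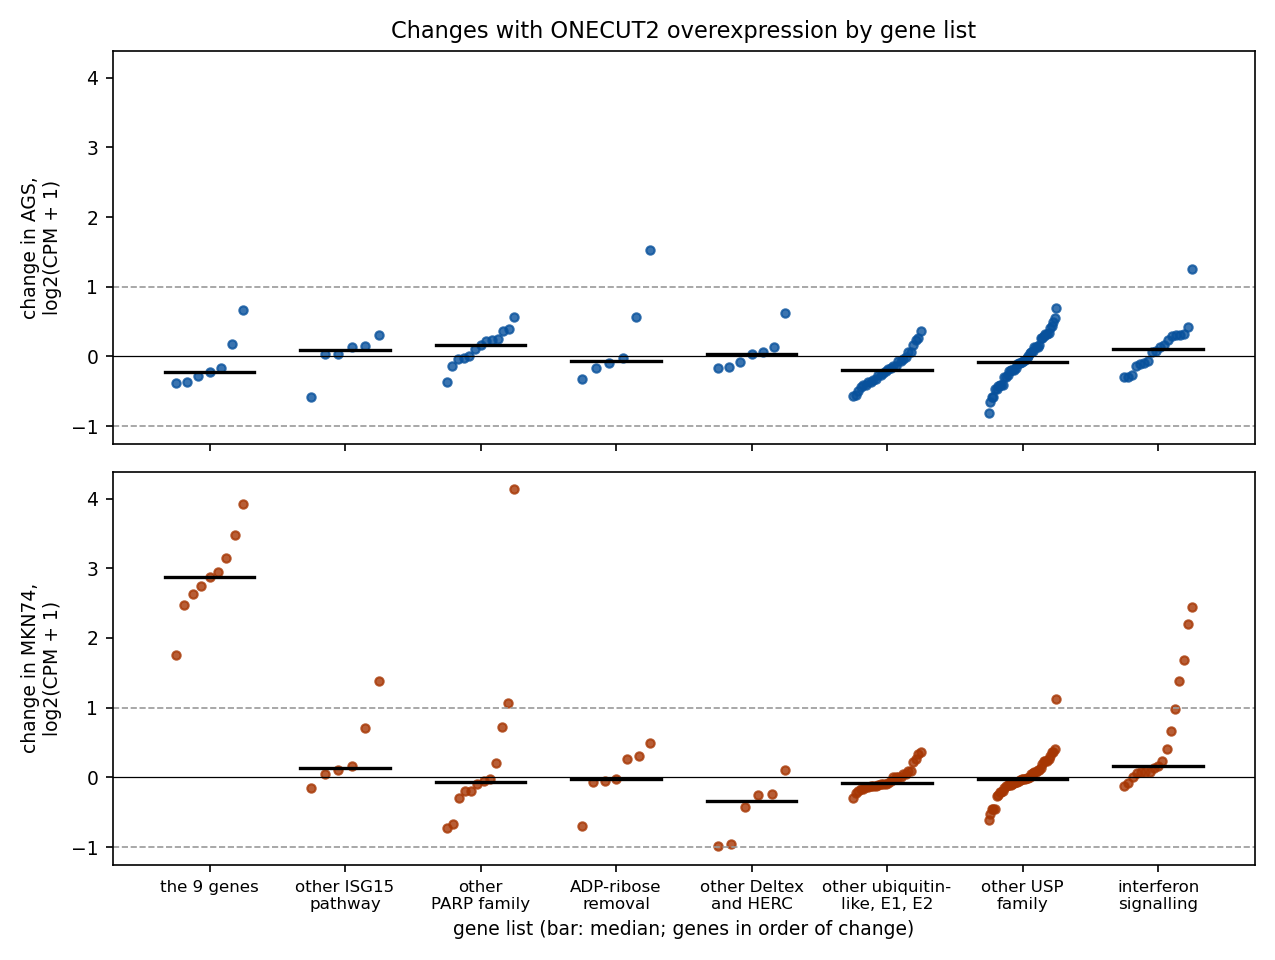
Changes of log2(CPM + 1) with overexpression in AGS (upper) and MKN74 (lower), 1 point per gene averaging 1 CPM or more, by gene list, with the median as a bar and dashed lines at 2-fold. In MKN74 the 9 genes have a median of 2.88, while the medians of the other 7 lists lie between -0.34 and 0.17.

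Of the interferon ligand and signalling genes 4 of 17 were at least 2-fold higher in MKN74 and 0 lower. Among them were the transcription factor genes IRF7 at 2.20, IRF9 at 1.69 and STAT2 at 1.38. In AGS these changed by 0.32, 0.31 and 0.14. The receptor chain genes IFNAR1 and IFNAR2 changed by -0.08 and 0.17 in MKN74. In AGS 1 of 18 was at least 2-fold higher and 0 lower, IFNL1, a type III interferon and the sole ligand analysed, at 1.26: its level was 0.707 CPM in the AGS control and 3.10 CPM in AGS overexpression, and 0.120 and 1.09 CPM in MKN74, under the filter there. Its ratio was 4.38 (2.92 to 6.79) in AGS and 9.12 (3.66 to 29.3) in MKN74. Of 11 immune cell markers 3 were analysed, with summed levels of 8.57 and 13.7 CPM in the MKN74 control and overexpression libraries. Among these LYZ, a lysozyme gene that gastric glands also express, was at 0 and 6.89 CPM, and CD68, a macrophage marker, at 8.45 and 6.74 CPM. In both AGS libraries LYZ was far higher, at 7661 and 7066 CPM. Of 9 fibroblast and endothelial markers 2, COL1A1 and ACTA2, were analysed, with summed levels of 7.23 and 24.1 CPM in the MKN74 control and overexpression libraries and of 20.2 and 23.8 CPM in those of AGS. ACTA2, a smooth muscle actin gene, was at 0.455 and 11.5 CPM in the MKN74 libraries, a change of 3.10, and COL1A1, a collagen gene, at 6.77 and 12.6 CPM, a change of 0.81. The part of these markers in the members' changes was not tested.

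The 5 genes whose profile over the 4 libraries lay nearest to the members' median profile were DDX60L, PLSCR1, C19orf66, FZD7 and ACSM3. Likeness was the Euclidean distance between log2 values, each centred on the gene's own mean, and was 0.13, 0.27, 0.41, 0.52 and 0.56 in that order. DDX60L was at 28.3, 26.1, 7.97 and 57.6 CPM in the AGS control, AGS overexpression, MKN74 control and MKN74 overexpression libraries. Of the members PARP12 lay nearest to that median, at 0.06, and HERC5 and HERC6 farthest, at 5.65 and 5.16. The distance rests on 4 libraries and has no test.

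Most genes beside the members on the chromosome changed less than 2-fold. The order was taken from RefSeq on GRCh38.p14, with the 3 nearest listed protein-coding genes on each side of each locus, an analysis added after the data were seen. Of 31 such neighbours tested in MKN74, 2 were at least 2-fold higher and 0 lower, with a median change of 0.03. The shares over all genes tested in MKN74 were 3.26% higher and 1.35% lower, and in AGS 4.19% and 0.728%. The higher MKN74 neighbours were PPM1K, a mitochondrial phosphatase gene beside HERC6, at 1.03, and SERPING1, the C1 inhibitor gene beside UBE2L6, at 1.11. On chromosome 3, KPNA1 and HSPBAP1, on either side of the PARP9, DTX3L and PARP14 group, changed by 0.10 and 0.01. On chromosome 4, HERC3 lies next to HERC5 and had a CPM ratio of 0.495 (0.441 to 0.555) in MKN74, the opposite direction to its neighbour. In AGS 3 of 33 neighbours were at least 2-fold higher and 0 lower, all beside UBE2L6: SLC43A1 at 2.55, RTN4RL2 at 1.38 and SERPING1 at 1.15.

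**Figure D5:**
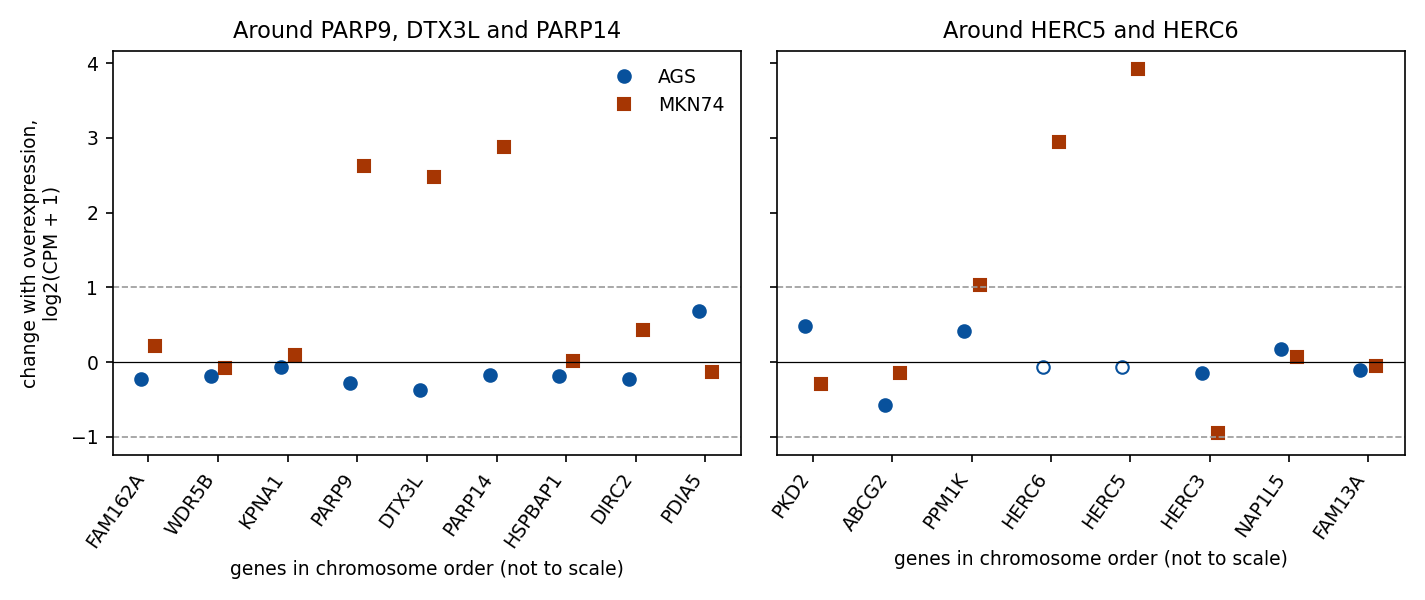
Change of log2(CPM + 1) in AGS and MKN74 for genes in chromosome order around PARP9, DTX3L and PARP14 (left) and around HERC6 and HERC5 (right), 1 point per line; open points had a mean under 1 CPM. The members stand at 2.47 to 3.92 in MKN74, and of the genes beside them PPM1K, at 1.03, is the highest.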

How the data were processed

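RNA sequencing of AGS and MKN74 was analysed in 4 libraries, grouped by title. A TruSeq RNA kit was used, per the labels' protocols. Tools listed without roles in the submitters' processing notes are edgeR 3.12.1, STAR 2.5.1, Bowtie2 2.1.0, CASAVA 1.7 and HOMER 4.9.1, with build hg19. Counter, annotation and strand setting were not stated in the sources used.

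The authors deposited log2 values. By the values, each is log2(CPM + 1): undoing it gave whole reads for 100% of values, within 1e-07 of a read, with 0.0218 to 0.0244 CPM per read. Trimmed-mean factors recomputed from these reads were 1.000 in every library, so the deposited scaling already carried them. A count of 0 allows 3 reads, or 0.0654 to 0.0731 CPM. 18 rows named by dates (0.218% to 0.239% of reads) were left out.

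Changes were counted at 2-fold over genes averaging 1 CPM or more in the libraries compared. In the table as deposited, every row reached 43 reads in its highest library. Intervals are exact (Clopper-Pearson, conditional binomial) at 95%. They cover counting error only, since reads that carry no molecular identifier need not be separate molecules. The common effect was fitted in limma on the log2 values with line as covariate and moderated with an intensity trend. It was Benjamini-Hochberg adjusted over all genes at 0.05. That step was tried on simulated data with normal spread and the same change in both lines. The simulation does not cover changes that differ between the lines, as those of the members do.

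The members, lists and tests were chosen with earlier results of these data known. Named were the 9 members, ONECUT2, list genes past 2-fold or up to 4 with the largest changes, and the 5 of nearest profile. Other genes named (CDH1, UBE2L3, PARP1, IFNAR1, IFNAR2, LYZ, CD68, COL1A1, ACTA2 and chromosome neighbours) were chosen after their values were seen. Alternatives were other pseudocounts, filters, scalings, fold sizes and fits. Software was limma 3.58.1 in R 4.3.3, with scipy 1.17.1, pandas 2.3.3, matplotlib 3.10.9 and numpy 2.4.6 in Python 3.11.15. Some list genes are not reported here.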

Additional observations from a re-analysis of the deposited data

Results flagged for a closer look

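Of the 9 genes, 5 are listed because they differed in opposite directions in the 2 lines, beyond counting error: lower in AGS overexpression and higher in MKN74 overexpression. The same held for 9.59% of the 10766 genes tested in both lines. The change in MKN74 minus the change in AGS, on the log2(CPM + 1) scale, was 2.14 for USP18, 2.90 for PARP9, 2.95 for PARP12, 3.05 for PARP14 and 2.84 for DTX3L. The difference between the lines was not tested, since each line has 1 library per group. The AGS part of each is small, from -0.17 to -0.38.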

How the results depend on the processing

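The 9 genes of MKN74 all stayed at least 2-fold higher with a pseudocount of 2 or 0.1, no filter, a filter at 5 CPM, quantile normalization, a shift to a common median and trimmed-mean factors. No member that passed the filter changed sign in any comparison or in the limma fits under any alternative run (HERC5 and HERC6 were not followed in AGS). Several alternatives could not change a sign. The filters leave each member's difference as it was, and trimmed-mean factors of 1.000 nearly so. A pseudocount alters the size of a difference between a pair of libraries but never its sign. Between libraries, that leaves quantile normalization and the shift to a common median as alternatives that could have changed a sign. In limma, dropping the trend, robust moderation and leaving out the line also leave each effect as it was. At 1.5-fold 1 member was higher in AGS (UBE2L6), against 11.2% of genes higher there and 6.61% in MKN74; at 4-fold 0.548% and 1.09% of genes were higher, and 8 members in MKN74, without USP18. Between the controls 3 members were lower in MKN74 at 4-fold, beside 6.67% of genes, and the median was -1.61 with quantile normalization. Between the overexpression libraries 3 members were higher and 0 lower in MKN74 at 4-fold, beside 5.90% and 7.32% of genes, 1 was lower at 1.5-fold, beside 27.8%, and the median was 1.26 after a shift to a common median, which moved the median of all genes there from 0.02 to 0.13. limma called 0 genes under every alternative run, with 12 at an unadjusted p under 0.05 without the line, 591 with robust moderation and 902 by voom. Of the methods made for counts, voom alone was run on the recovered reads, and quasi-likelihood and DESeq-type tests were not run. No library could be left out within a group, since each group has 1, and no paired analysis by replicate number was possible because the labels give none. Depth limits HERC5 and HERC6 in AGS, at 12 and 4 reads.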
